A study of Mus musculus with 8 samples.

Results

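The 10 genes described here encode chemokine ligands of mouse peritoneal macrophages (pMacs): *Cxcl1*, *Cxcl2*, *Cxcl10*, *Cxcl13*, *Ccl2*, *Ccl3*, *Ccl4*, *Ccl6*, *Ccl9* and *Ccl24*. They were chosen by name, as chemokines of neutrophils, monocytes and the interferon response, from the 48795 genes of the series, and *Cxcl1* was selected on its higher level in CD1d-KO pMacs in these same libraries. The genotype values of *Cxcl1* are therefore given as a description with no test. Polyadenylated RNA was sequenced from unstimulated pMacs of peritoneal lavage, in 4 WT (C57BL/6) mice and 4 CD1d-KO mice, with 1 library per mouse. CD1d-KO mice lack the lipid-presenting molecule CD1d in every cell and also lack the NKT cells that CD1d selects. The methods of the study list 2 CD1d-KO lines, a floxed CD1d allele crossed to PGK-Cre and the line B6.129S6-Del(3Cd1d2-Cd1d1)1Sbp/J, in which *Cd1d1* and *Cd1d2* are deleted, and which of them gave the RNA is not given in the sources used here. The mice were age- and sex-matched adult littermates, and the exact age for each library is not given in the sources used here. The libraries carry replicate numbers 1, 2, 3 and 5 in each genotype, so each number joins 1 mouse of each genotype in a pair.

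Chemokines are small secreted proteins that attract leukocytes through G-protein-coupled receptors, and their names follow the spacing of the first cysteines (CXC or CC). Resident macrophages of the peritoneal cavity are a source of them. CXCL1 and CXCL2 bind CXCR2 and call in neutrophils, CXCL10 is induced by interferon and binds CXCR3 on T cells and NK cells, and CXCL13 binds CXCR5 on B cells. CCL2 binds CCR2 on monocytes, CCL3 and CCL4 attract monocytes and T cells, CCL6 and CCL9 are rodent chemokines that bind CCR1, and CCL24 binds CCR3 on eosinophils.

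The promoters of the 3 CXC members that are induced by inflammatory signals are shown because these genes lie on 1 chromosome and differed in how they varied between the libraries. Each sequence is the 250 bases upstream of the RefSeq start on GRCm38.p6, read 5′ to 3′ on the strand of the gene. Capitals mark matches to the kappa-B pattern GGGNNNNNCC of NF-kB or, once in *Cxcl10*, to the interferon response pattern GAAANNGAAA, on either strand. The windows are chr5:90890995-90891244 on the plus strand (*Cxcl1*), chr5:90903649-90903898 on the plus strand (*Cxcl2*) and chr5:92348890-92349139 on the minus strand (*Cxcl10*).
Cxcl1: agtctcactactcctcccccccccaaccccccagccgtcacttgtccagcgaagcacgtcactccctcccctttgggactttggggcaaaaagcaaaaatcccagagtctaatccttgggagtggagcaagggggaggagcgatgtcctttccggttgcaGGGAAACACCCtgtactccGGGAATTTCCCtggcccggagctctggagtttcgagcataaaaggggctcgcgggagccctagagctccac
Cxcl2: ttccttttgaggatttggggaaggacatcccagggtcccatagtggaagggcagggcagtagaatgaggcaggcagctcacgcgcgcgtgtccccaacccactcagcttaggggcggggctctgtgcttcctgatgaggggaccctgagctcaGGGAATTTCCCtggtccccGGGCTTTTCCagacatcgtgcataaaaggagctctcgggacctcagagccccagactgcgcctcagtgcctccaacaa
Cxcl10: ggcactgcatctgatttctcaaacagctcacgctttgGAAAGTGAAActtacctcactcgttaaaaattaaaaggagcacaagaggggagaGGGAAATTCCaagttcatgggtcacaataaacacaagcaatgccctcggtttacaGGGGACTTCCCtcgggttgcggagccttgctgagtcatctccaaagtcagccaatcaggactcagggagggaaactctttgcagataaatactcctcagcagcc

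A kappa-B match was found in 45.8% of the 32851 RefSeq promoters searched in the same way, an interferon response match in 2.98% and the TATA box letters TATAAA in 12.4%. The longest run shared by the windows of *Cxcl1* and *Cxcl2* was GGGAATTTCCCTGG, 14 bases that begin 71 bases upstream of the start in *Cxcl1* and 97 bases upstream in *Cxcl2* and hold a kappa-B match. The interferon response match of *Cxcl10*, GAAAGTGAAA, begins 213 bases upstream of the start. Kappa-B matches begin 159 and 104 bases upstream of it, the second overlapping a further match that begins 1 base later. Of the 10 members, 7 had a window in the RefSeq table. The window of *Cxcl13* held a kappa-B and a TATA box match, that of *Ccl9* held both as well, and those of *Ccl3* and *Ccl6* held no match to the 3 patterns. These matches describe letters and were not tested as binding sites.

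Total expected counts per library ran from 13875116 to 19059432 in WT and from 13698864 to 18631659 in CD1d-KO pMacs. The markers of large peritoneal macrophages were tested in 10 of 10 cases and summed to between 21266.7 and 31798 TPM (abundance scaled for transcript length and depth) in every library. *Lyz2* had the most expected counts of this list, from 180432 to 355832, and *Gata6* had from 289 to 1040. Markers of small peritoneal macrophages, monocytes and dendritic cells summed to between 6656 and 11920 TPM in WT and between 6934 and 9871 TPM in CD1d-KO. *Fn1* had the most counts of that second list, from 309821 to 849522. The other markers of it had far fewer, from at most 10 for *Flt3* to at most 6910 for *H2-Aa*. The sum of that list is therefore not read as a measure of those cells. *Cd1d1*, which encodes CD1d, had normalized counts (counts scaled to the mean library size) of 68.2, 175, 96.1 and 141 in WT replicates 1, 2, 3 and 5 and of 1.14, 0 and 1.10 in CD1d-KO replicates 2, 3 and 5. The library labelled CD1d-KO replicate 1 had 60.7, which goes against its label, so the genotype values of the members are also given without replicate 1. In that library *S100a8* had 84.2, between 81.1 and 90.1 as in the other CD1d-KO libraries, against 44.5 to 51.6 in WT. *S100a8* lies on the same chromosome as *Cd1d1*, chromosome 3, with lower coordinates of 90668978 and 86995834. Whether its level follows that region was not tested. Whether the label is right was not tested. By edgeR's quasi-likelihood test, with a replicate block and Benjamini-Hochberg adjustment over 13040 genes, 5 genes passed an adjusted p under 0.01 with a fold change above 1.5 (0.0383% of the genes tested), and 0 of the 9 members other than *Cxcl1* were among them. Each adjusted p below comes from this fit unless another tool is named. *Cd1d1* itself was not called in this fit (log2 fold change -3.42 ± 1.04 SE, edgeR adjusted p = 0.233). Without replicate 1 its log2 fold change was -7.27 (edgeR adjusted p = 0.000685), and DESeq2 on all libraries gave an adjusted p of 0.00274. A missing call is therefore not read as the absence of a difference. All 10 members passed the filter on low counts.

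**Figure D1:**
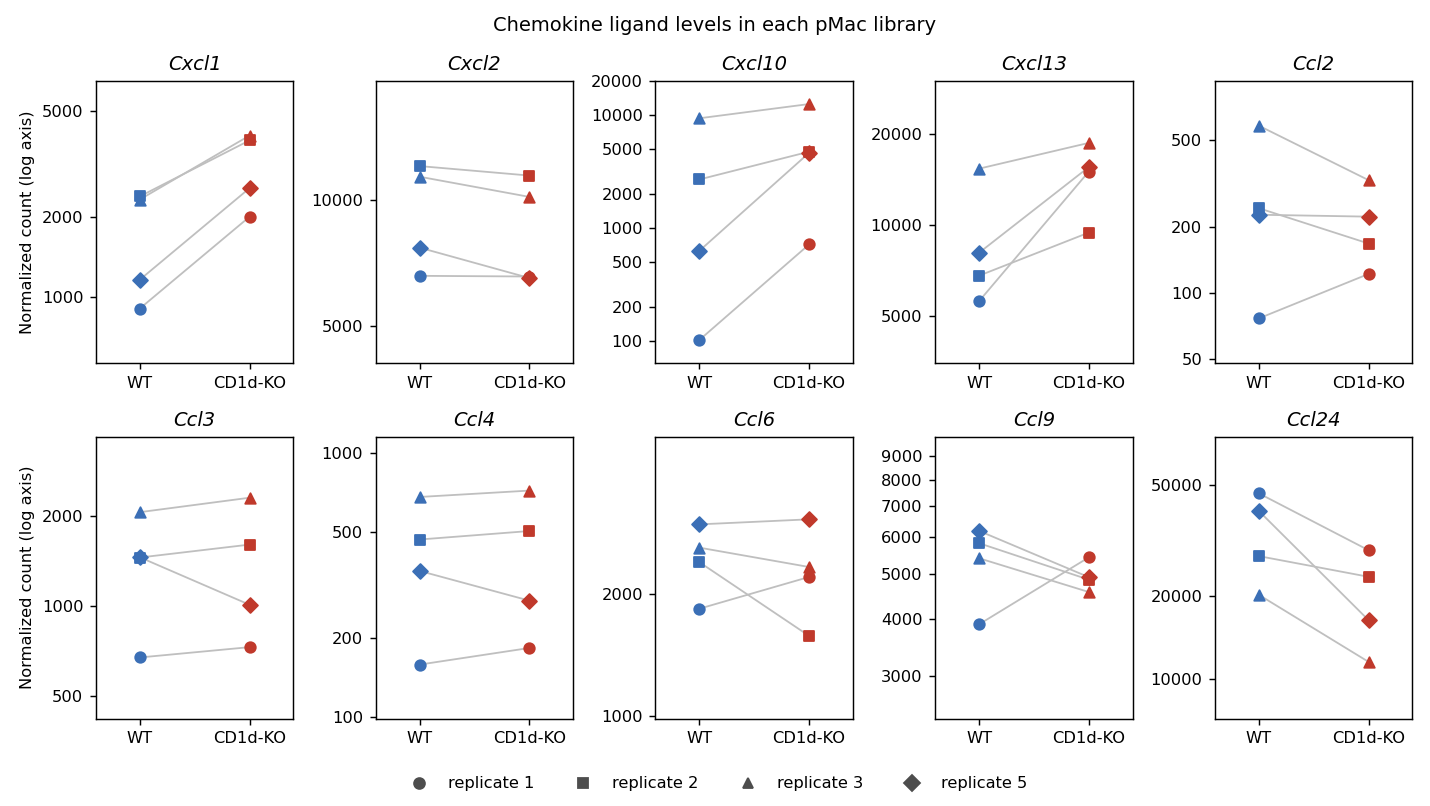
Normalized counts (log axes) of the 10 chemokine ligands in the 4 WT (blue) and 4 CD1d-KO (red) libraries, with a symbol for each replicate number and a grey line for each pair. For all 10 genes the WT and CD1d-KO points overlap, and for *Cxcl1*, *Cxcl10* and *Cxcl13* 4 of 4 lines run upward.

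The neutrophil chemokine gene *Cxcl1* (ENSMUSG00000029380, GRCm38 chromosome 5 from 90891241 to 90893115) had 907, 2387, 2324 and 1164 normalized counts in WT replicates 1, 2, 3 and 5. The paired CD1d-KO libraries had 2003, 3870, 4034 and 2562. The CD1d-KO library was the higher one in 4 of 4 pairs, and the groups overlapped because WT replicates 2 and 3 lay above CD1d-KO replicate 1. The log2 fold change (CD1d-KO over WT) was 0.94, and it was 0.87 without replicate 1. In single pairs the log2 ratio ran from 0.70 to 1.14, and this narrow range is part of what *Cxcl1* was selected on. Without replicate 1 the 3 CD1d-KO values lay above the 3 WT values. Nothing is read from this separation, since *Cxcl1* was selected on these values and the share of all genes separated so was not counted.

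*Cxcl2* (ENSMUSG00000058427), which encodes the other CXCR2 ligand among the members, starts 12.6 kb downstream of the start of *Cxcl1*. Its normalized counts were 6579, 12069, 11380 and 7690 in WT replicates 1, 2, 3 and 5 and 6555, 11452, 10179 and 6500 in the paired CD1d-KO libraries. The same replicate numbers were high as for *Cxcl1*, but here the CD1d-KO library was the lower one in 4 of 4 pairs, by small amounts. The log2 fold change was -0.12 ± 0.08 (SE), with an edgeR adjusted p of 0.570 and -0.16 without replicate 1. RSEM gave *Cxcl2* counts that were not whole in 8 of 8 libraries, so some of its reads were divided with other genes.

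The ratio of *Cxcl1* to *Cxcl2* TPM within a library does not depend on scaling between libraries. It was 0.161, 0.220, 0.233 and 0.164 in WT replicates 1, 2, 3 and 5 and 0.348, 0.365, 0.444 and 0.437 in the paired CD1d-KO libraries. The 4 CD1d-KO ratios lay above the 4 WT ratios. This ratio was chosen after the values were seen and uses the gene selected on this contrast, so it was not tested.

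*Cxcl10* (ENSMUSG00000034855, chromosome 5 from 92346638 to 92348889) varied most between libraries. Its normalized counts were 101, 2688, 9381 and 625 in WT replicates 1, 2, 3 and 5 and 713, 4741, 12549 and 4632 in the paired CD1d-KO libraries. The CD1d-KO library was higher in 4 of 4 pairs, while the range within WT alone spanned 92.8-fold. The log2 fold change was 1.66 ± 0.43 (SE) and did not pass the threshold (adjusted p = 0.181 from edgeR). It was 1.32 without replicate 1 (adjusted p = 0.419). The log2 ratio was 2.79 and 2.89 in pairs 1 and 5 and 0.82 and 0.42 in pairs 2 and 3, and the 2 pairs with the larger ratios were those whose WT library was lowest. RSEM counts of *Cxcl10* were not whole in 8 of 8 libraries, so its reads too were divided in part with other genes.

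Values of interferon response genes are set beside those of *Cxcl10*. All 13 genes of that list were higher in CD1d-KO pMacs by their estimate, against 6650 of 13040 tested genes, and 0 were called by edgeR or DESeq2. At an unadjusted p under 0.05 from edgeR, 12 were higher, against 7.35% of all tested genes. The list was chosen with earlier results of these data known. Its median log2 fold change was 0.90, and 0.57 without replicate 1, against a median of 0.0047 over all tested genes. The summed TPM of the list was 465, 3422, 6932 and 2100 in WT replicates 1, 2, 3 and 5 and 1498, 4085, 7571 and 5709 in the CD1d-KO libraries. Replicate 3 was highest and replicate 1 lowest in each genotype, as for *Cxcl10*. *Irf7*, a transcription factor of the interferon response, had a log2 fold change of 0.90 ± 0.22 (SE), with an edgeR adjusted p of 0.150, and *Mx1*, an antiviral GTPase, had 1.12 ± 0.31 (SE), with an adjusted p of 0.201. Without replicate 1 these were 0.69 for *Irf7* and 0.84 for *Mx1*. The part of the interferon response in the *Cxcl10* difference was not tested.

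*Cxcl13* (ENSMUSG00000023078, chromosome 5 from 95956951 to 95961068) had 5597, 6795, 15322 and 8087 normalized counts in WT replicates 1, 2, 3 and 5. The paired CD1d-KO libraries had 14992, 9429, 18637 and 15508. WT replicate 3 lay above CD1d-KO replicates 1 and 2, so the groups overlapped, although 4 of 4 pairs were higher in CD1d-KO. The log2 fold change was 0.78 ± 0.18 (SE), with an edgeR adjusted p of 0.144. Without replicate 1, whose pair had the largest log2 ratio (1.42), it was 0.56 (adjusted p = 0.279). CXCL13 attracts B cells, and B cell markers summed to between 170 and 519 TPM in WT and between 116 and 881 TPM in CD1d-KO pMacs, with 8 of 8 markers detected well enough to test and 0 called. Fewer cells of a type and less RNA per cell cannot be told apart in these bulk samples.

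The eosinophil chemokine gene *Ccl24* (ENSMUSG00000004814, chromosome 5 from 135569937 to 135573049) was the member with the lowest genotype estimate. Its normalized counts were 46723, 27783, 20166 and 40387 in WT replicates 1, 2, 3 and 5 and 29175, 23407, 11571 and 16344 in the paired CD1d-KO libraries. The CD1d-KO library was lower in 4 of 4 pairs, and the groups overlapped, with WT replicate 2 below CD1d-KO replicate 1 and WT replicate 3 below CD1d-KO replicates 1 and 2. The log2 fold change was -0.76 ± 0.16 (SE) and did not pass the threshold in edgeR (adjusted p = 0.121). It was -0.78 without replicate 1 (adjusted p = 0.277). DESeq2 with the same covariates gave -0.76 with an adjusted p of 8.8e-05 and called it. Eosinophil markers summed to between 229 and 402 TPM in WT and between 200 and 424 TPM in CD1d-KO pMacs. *Alox15* held most of this sum, with between 5124 and 9305 normalized counts over the 8 libraries. The other listed markers *Siglecf*, *Il5ra*, *Prg2*, *Epx* and *Ear6* had at most 48, 109, 3, 1 and 0 counts. The sum is therefore not read as a measure of eosinophils.

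The monocyte chemokine gene *Ccl2* (ENSMUSG00000035385, chromosome 11 from 82035571 to 82037453) had 76.4, 244, 582 and 228 normalized counts in WT replicates 1, 2, 3 and 5 and 122, 168, 328 and 223 in the paired CD1d-KO libraries. The WT range enclosed all 4 CD1d-KO values. The log2 fold change was -0.22 ± 0.22 (SE), with an edgeR adjusted p of 0.747, with 1 of 4 pairs higher in CD1d-KO, and it was -0.48 without replicate 1 (adjusted p = 0.445).

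The inflammatory chemokine genes *Ccl3* (ENSMUSG00000000982) and *Ccl4* (ENSMUSG00000018930) lie beside each other on opposite strands of chromosome 11. *Ccl3* had 674, 1454, 2061 and 1457 normalized counts in WT replicates 1, 2, 3 and 5 and 730, 1606, 2303 and 1011 in the paired CD1d-KO libraries. *Ccl4* had 158, 470, 680 and 357 in WT and 183, 506, 719 and 276 in CD1d-KO. For both genes replicate 1 was lowest and replicate 3 highest in each genotype, and 3 of 4 pairs were slightly higher in CD1d-KO, with pair 5 lower. The log2 fold changes were -0.02 ± 0.12 (SE), with an edgeR adjusted p of 0.958 for *Ccl3* and 0.01 ± 0.11 (SE), with an adjusted p of 0.986 for *Ccl4*.

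*Ccl6* (ENSMUSG00000018927) and *Ccl9* (ENSMUSG00000019122), the rodent CCR1 ligand genes of the same cluster, varied least between replicate numbers. *Ccl6* had between 1835 and 2963 normalized counts in WT and between 1573 and 3049 in CD1d-KO (log2 fold change -0.11 ± 0.13 SE, edgeR adjusted p = 0.786). *Ccl9* had between 3887 and 6193 in WT and between 4566 and 5427 in CD1d-KO (log2 fold change -0.09 ± 0.14 SE, edgeR adjusted p = 0.847). The WT range of *Ccl9* enclosed the CD1d-KO range. Without replicate 1 the log2 fold changes were -0.24 for *Ccl6*, -0.28 for *Ccl9*, -0.07 for *Ccl3* and -0.05 for *Ccl4*, and the sign of *Ccl4* turned.

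**Figure D2:**
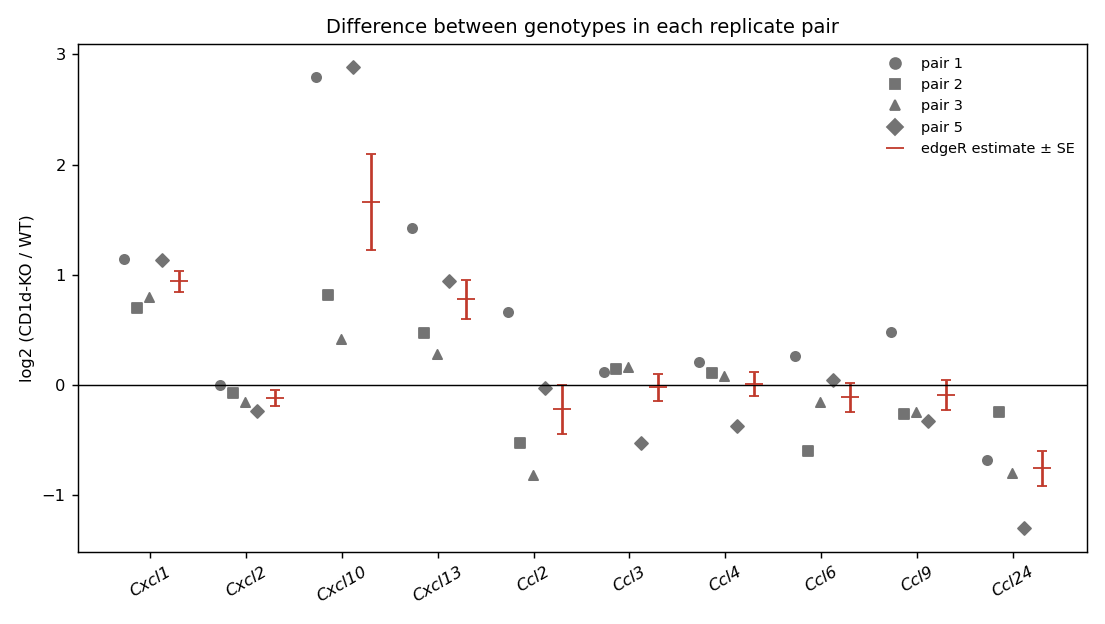
The log2 ratio of CD1d-KO to WT in each replicate pair (grey symbols) beside the edgeR estimate with its standard error (red) for the 10 chemokine ligands. *Cxcl1* has 4 pairs between 0.70 and 1.14, *Cxcl10* has the widest spread of pairs, and *Ccl3* and *Ccl4* lie near 0 except in pair 5. The standard error drawn for *Cxcl1* follows from how it was selected, and nothing is read from it.

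By count, 2 of the 9 members other than *Cxcl1* (*Cxcl10* and *Cxcl13*) had the higher value in CD1d-KO in 4 of 4 pairs, against 10.6% of all tested genes, and 2 (*Cxcl2* and *Ccl24*) were lower in 4 of 4, against 10.1%. At an unadjusted p under 0.05 from edgeR, 2 of the 9 were higher against 7.35% of the genes and 1 was lower against 5.01%. None of the 9 had every CD1d-KO library above every WT library, as 1.04% of the genes did, or every one below, as 0.905% did. DESeq2, the tool the study used, called 0.989% of its genes and 1 of the 9, *Ccl24*. The median log2 fold change of the 10 members was -0.06, and -0.11 without replicate 1.

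The replicate number separated several of the members. A joint test of the replicate numbers in the same edgeR fit passed an adjusted p of 0.01 for 5 of the 10 members, and for 4 of the 9 other than *Cxcl1*, against 3.93% of all tested genes. The 4 were *Ccl4* (adjusted p = 0.00315), *Cxcl2* (0.00583), *Ccl3* (0.00587) and *Cxcl10* (0.00951). *Cxcl1* gave 0.00465, a value that nothing is read from, since a gene picked for pairs that differ alike has little variation left over. The others gave 0.0169 for *Ccl2*, 0.0335 for *Ccl24*, 0.0611 for *Cxcl13*, 0.122 for *Ccl6* and 0.737 for *Ccl9*. The means per replicate number differed 26.9-fold between the highest and the lowest for *Cxcl10*, 4.58-fold for *Ccl2*, 4.10-fold for *Ccl4* and 1.19-fold for *Ccl9*. The number of members that passed became 0 without replicate 1 and 0 without replicate 3. Over all tested genes, 513 became 47 without replicate 1 and 0 without replicate 3, so this loss was not particular to the members.

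Replicate 1 was the lowest of the numbers for *Cxcl1*, *Cxcl2*, *Cxcl10*, *Ccl2*, *Ccl3* and *Ccl4*. *Ccl24* ran the other way, with a mean of 37949 normalized counts for replicate 1 and of 15868 for replicate 3. The labels do not say what a replicate number shares, such as a day, a cage or a preparation, so these cannot be told apart.

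**Figure D3:**
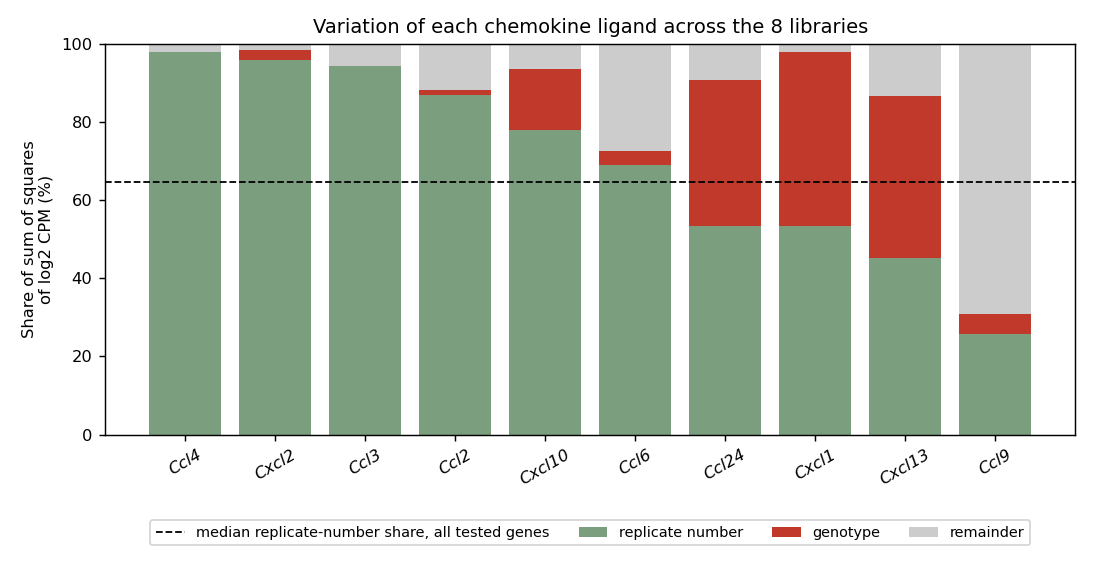
Share of the sum of squares of log2 CPM (counts scaled to library size) across the 8 libraries that falls to replicate number (green), genotype (red) and the remainder (grey), in percent, for each chemokine ligand, with the median replicate-number share of all tested genes as a dashed line (64.8%). *Ccl4* lies highest with 97.9% and *Ccl9* lowest with 25.8%.

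In shares of the sum of squares of log2 CPM, replicate number took 97.9% for *Ccl4*, 96.0% for *Cxcl2*, 94.4% for *Ccl3*, 87.0% for *Ccl2*, 78.0% for *Cxcl10* and 69.1% for *Ccl6*, against a median of 64.8% over all tested genes. It took less than that median for *Ccl24* (53.4%), *Cxcl1* (53.3%), *Cxcl13* (45.3%) and *Ccl9* (25.8%). Genotype took 44.7% for *Cxcl1*, 41.4% for *Cxcl13* and 37.4% for *Ccl24*, against a median of 7.14%. The genotype share of *Cxcl1* follows from how it was chosen. For *Ccl9* 69.2% of the variation belonged to neither.

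Levels per length were compared in TPM. *Ccl24* was the most abundant member with 3565 ± 1745 TPM (SD over 8 libraries), the twentieth highest mean among the 13040 tested genes. *Cxcl13* followed with 1108 ± 451 TPM, *Cxcl2* with 751 ± 154, *Ccl9* with 447 ± 63.2 and *Ccl6* with 251 ± 58.2. Next in the order of mean log2(TPM + 1) came *Cxcl1* with 222 ± 92.0 TPM, *Cxcl10* with 407 ± 395, *Ccl3* with 202 ± 69.6, *Ccl4* with 70.2 ± 31.1 and *Ccl2* with 32.4 ± 19.3. *Cxcl10* had a higher mean TPM than its place because it ran from 11.2 TPM in WT replicate 1 to 1090 TPM in CD1d-KO replicate 3.

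Of the 9 pairs of neighbours in this order, 5 differed in an exact sign-flip permutation test (two-sided, 8 libraries, adjusted p under 0.05 over the 9 pairs). *Ccl24* was above *Cxcl13* in 7 of 8 libraries (exact permutation test, adjusted p = 0.0281). *Cxcl2* was above *Ccl9*, *Ccl9* above *Ccl6*, *Ccl3* above *Ccl4* and *Ccl4* above *Ccl2* in 8 of 8 libraries (exact permutation test, adjusted p = 0.0176 each, from the smallest p of 0.00781 that 8 libraries allow). *Cxcl13* and *Cxcl2* did not differ beyond their spread (exact permutation test, adjusted p = 0.211), nor did *Ccl6* and *Cxcl1* (0.502), *Cxcl1* and *Cxcl10* (0.984) or *Cxcl10* and *Ccl3* (0.984). This test takes the 8 libraries as independent. With signs flipped by replicate pair, an alternative chosen after seeing the data, 0 of the 9 pairs passed, and 4 replicate pairs allow no p below 0.125.

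**Figure D4:**
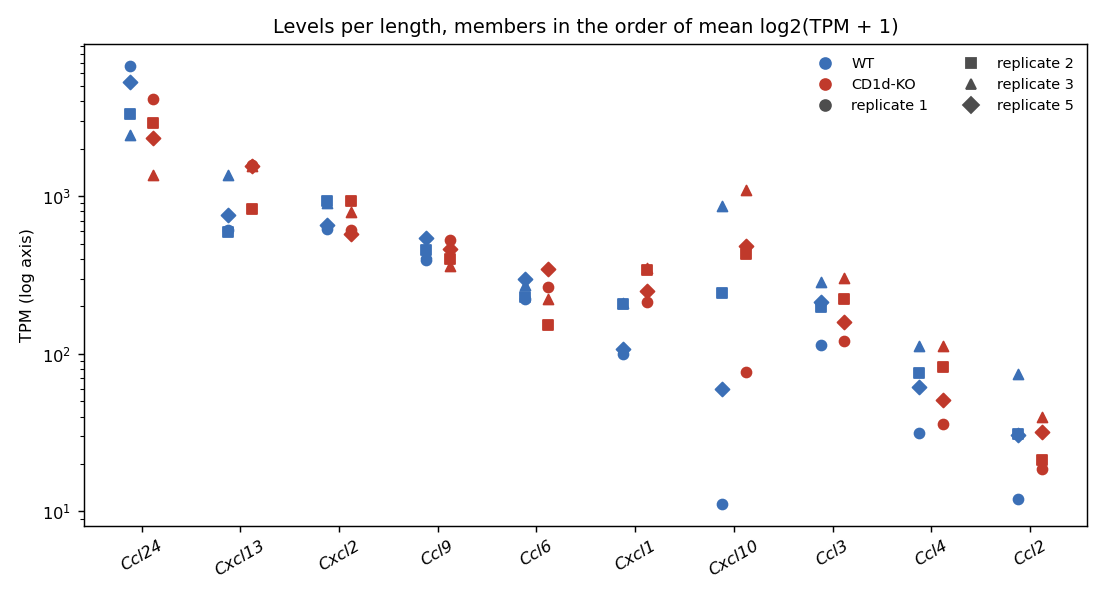
TPM (log axis) of each chemokine ligand in the WT (blue) and CD1d-KO (red) libraries, with a symbol for each replicate number, ordered by mean log2(TPM + 1). *Ccl24* lies at the top of the order and *Ccl2* at the bottom, and *Cxcl10* spans 11.2 to 1090 TPM.

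The genes most like each member across the 8 libraries were found by Pearson's r of log2 CPM among 9941 tested genes with a mean normalized count of at least 50. These r are descriptions, since the libraries share genotypes and replicate numbers. *Ccl3* and *Ccl4* each had the other among its nearest 2 genes (r = 0.989), and the TPM ratio of *Ccl3* to *Ccl4* stayed between 2.56 and 3.61 in the 8 libraries. *Ccl2* was nearest to *Ccl7*, the monocyte chemokine gene that starts 10.1 kb away (r = 0.986). *Cxcl2* was nearest to *Il1a*, which encodes the cytokine interleukin 1 alpha (r = 0.969), and *Cxcl10* to *Setdb2*, which encodes a histone methyltransferase (r = 0.999).

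*Cxcl1* was nearest to *Ifnar2*, a subunit gene of the type I interferon receptor (r = 0.980), and *Cxcl2* was not among its nearest 2 genes. *Ccl24* was nearest to *Lpl*, which encodes lipoprotein lipase (r = 0.986), and *Cxcl13* to *Calcrl*, a receptor gene of the adrenomedullin family (r = 0.980). *Ccl6* was nearest to *Dip2a* (r = 0.963). *Ccl9* had the lowest likeness of the members, with r = 0.945 to *Ndufc2*, a gene of mitochondrial complex I.

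Of 28 other chemokine ligand genes 12 were tested and 0 were called by edgeR. DESeq2 called *Ccl5* and *Cxcl14*, against 0.989% of all its tested genes. At an unadjusted p under 0.05 from edgeR, 1 was higher against 7.35% of all tested genes, and 5 were lower in CD1d-KO pMacs against 5.01%. The median log2 fold change of the 12 was -0.45, against 0.0047 over all tested genes. It was -0.56 without replicate 1, where 14 were tested. *Ccl5*, a T cell chemokine gene in the cluster of *Ccl3*, *Ccl4*, *Ccl6* and *Ccl9*, had the lowest p among the higher ones (log2 fold change 1.15 ± 0.18 SE, edgeR adjusted p = 0.0501). *Pf4*, which encodes platelet factor 4 (log2 fold change -0.52 ± 0.09 SE, adjusted p = 0.0731), and *Cxcl14* (-0.86 ± 0.15 SE, adjusted p = 0.0791) had the lowest p among the lower ones. Without replicate 1 these log2 fold changes were 1.01 for *Ccl5*, -0.49 for *Pf4* and -0.84 for *Cxcl14*. Platelet markers summed to at most 1.64 TPM in any library.

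In the cluster of *Cxcl1*, the estimates of its 5 tested neighbours (*Cxcl2*, *Cxcl3*, *Pf4*, *Ppbp* and *Cxcl5*) lay below 0. *Cxcl3*, a CXCR2 ligand gene 105 kb upstream that was named after its value was seen, had a log2 fold change of -0.71 ± 0.21 (SE), with an edgeR adjusted p of 0.233 and counts that were not whole in 8 of 8 libraries. In the cluster of *Cxcl10*, *Cxcl9* had at most 63 counts (log2 fold change 1.19 ± 0.67 SE, edgeR adjusted p = 0.528) and *Cxcl11* at most 39, too few to be tested. In the chromosome 11 cluster *Ccl5* stood apart from *Ccl9*, *Ccl6*, *Ccl3* and *Ccl4*, whose estimates lay between -0.11 and 0.01.

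**Figure D5:**
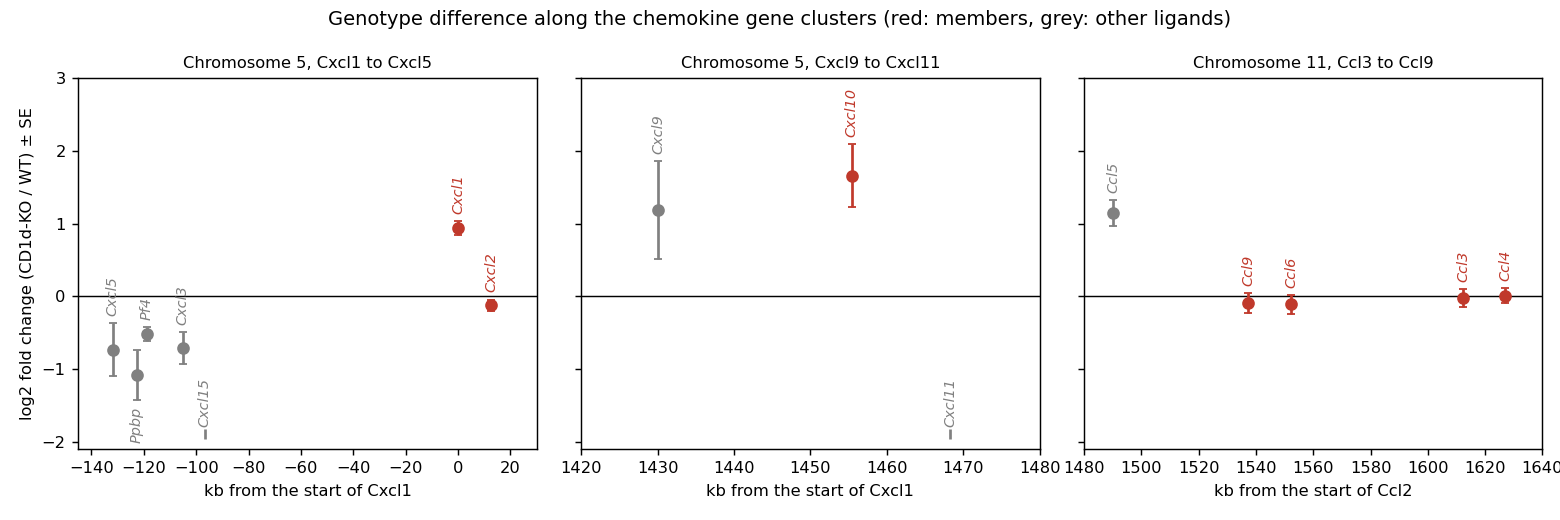
Log2 fold change (CD1d-KO over WT) with its standard error for the chemokine ligand genes of 3 clusters, against the distance in kb of the gene's lower coordinate from that of *Cxcl1* (left and middle) or *Ccl2* (right), with members in red, other ligands in grey and untested genes as ticks at the bottom. *Cxcl1* lies at 0.94 and *Cxcl2*, 12.6 kb away, at -0.12, and *Ccl5* lies at 1.15 beside 4 members near 0. Nothing is read from the standard error of *Cxcl1*, which follows from how it was selected.

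Among 16 chemokine receptor genes 9 were tested and 0 were called by edgeR. DESeq2 called *Ccrl2*, against 0.989% of all its tested genes. *Cxcr2*, the receptor gene of *Cxcl1* and *Cxcl2*, had at most 3 counts in any library, and the neutrophil markers *Ly6g* and *S100a9* had 0 and at most 1. *S100a8*, a further neutrophil marker, had between 44.5 and 51.6 normalized counts in WT and between 81.1 and 90.1 in CD1d-KO pMacs (adjusted p = 0.101 from edgeR). It lies on the chromosome of *Cd1d1*, and its values are not read as a measure of neutrophils. The list of 8 neutrophil markers summed to between 119 and 174 TPM in WT and between 187 and 216 in CD1d-KO pMacs, and *Csf3r*, the receptor gene of the growth factor G-CSF, held most of it. *Mmp8*, the third tested marker of that list, had between 8.41 and 36.5 normalized counts in WT and between 1.17 and 25.2 in CD1d-KO pMacs, and was lower in 4 of 4 pairs (adjusted p = 0.379 from edgeR). *Cxcr3*, the receptor gene of *Cxcl10*, had at most 10 counts, and T and NK cell markers summed to at most 3.69 TPM.

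The receptor gene of *Cxcl13*, *Cxcr5*, had between 134 and 444 normalized counts in WT and between 101 and 675 in CD1d-KO (log2 fold change 0.16 ± 0.15 SE, edgeR adjusted p = 0.725). *Ccr1* had at least 1200 counts in every library (log2 fold change -0.16, adjusted p = 0.481 from edgeR). *Ccr2* had between 29.4 and 139 counts (log2 fold change 0.21, edgeR adjusted p = 0.898, and -0.31 without replicate 1) and had counts that were not whole in 8 of 8 libraries. *Ccr3* had between 13 and 51 counts (adjusted p = 0.776). *Ccrl2*, which encodes an atypical receptor that binds chemerin, had the lowest p among receptors that were higher in CD1d-KO (log2 fold change 0.64 ± 0.14 SE, edgeR adjusted p = 0.144) and was higher in 4 of 4 pairs. Its log2 fold change without replicate 1 was 0.50, and its DESeq2 adjusted p was 0.0025.

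Of 18 regulators of NF-kB and of chemokine mRNA decay 18 were tested and 0 called by edgeR or DESeq2, with 13 estimates above 0 and 5 below and a median log2 fold change of 0.12. *Zfp36l1*, a paralogue of the mRNA decay factor *Zfp36*, had the lowest p (log2 fold change 0.35 ± 0.09 SE, edgeR adjusted p = 0.172), followed by *Bcl3*, which encodes an NF-kB cofactor (0.21 ± 0.07 SE, adjusted p = 0.283). *Nfkbia*, the gene of the inhibitor of NF-kB that NF-kB itself induces, had 0.14 (adjusted p = 0.503). Of 14 immediate early genes 13 were tested and 0 called by either tool, with a median of -0.09.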

How the data were processed

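The RNAseq libraries of pMacs comprised 4 WT and 4 CD1d-KO samples. The authors trimmed single-end reads with Cutadapt, aligned them to GRCm38 with STAR 2.5.2a and quantified genes with RSEM 1.3.0, and deposited expected counts, TPM and FPKM per gene. RSEM divides reads that match several genes. Expected counts were rounded and tested with edgeR 4.0.16 in R 4.3.3 (filterByExpr by genotype, TMM, quasi-likelihood test with genotype and replicate number, Benjamini-Hochberg adjustment over all 13040 genes tested), a model with the covariates the study used. The threshold for a call was adjusted p < 0.01 with fold change > 1.5. TPM as deposited by the authors served for levels, with a pseudocount of 1, and deposited FPKM only for an alternative. Log2 CPM used a prior count of 2. DESeq2 1.42.0 and limma 3.58.1 served as alternatives. The study itself used DESeq2, in an earlier version, for its comparison of genotypes. Gene symbols matched 99.09% of the 48795 gene IDs, and all 10 members. Promoters came from the RefSeq table of GRCm38.p6.

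The replicate numbers were taken to pair the samples, as in the study's model, since each same-number correlation was above 0.1: the correlation of deviations from the group means was 0.487, 0.388, 0.505 and 0.207 for numbers 1, 2, 3 and 5. The highest with another number was -0.0148, 0.0254, 0.0586 and 0.220, so number 5 correlated no better with its own number. The labels call the samples biological replicates, and each library is 1 mouse. The fits were tested on simulated data. The edgeR fit called 67 of 96 genes with a simulated absolute log2 fold change of 1 and 87 of 92 with 2. The members and lists were chosen with earlier results of these data known. Named genes were the members, their receptors (1 is not reported here), at most 2 genes of lowest p in each direction per list, the genes most like each member, and leading or defining markers. *Cxcl3*, *Cxcl5*, *Cxcl9*, *Cxcl11*, *Ppbp* and *Nfkbia* were named outside this rule, after their values were seen. Expected counts set the precision: 3 counts at the lowest total correspond to 0.219 CPM, and SEs and SDs cover the spread between libraries. Each SE of an edgeR fold change was the absolute log2 fold change divided by the square root of its test's F.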

Additional observations from a re-analysis of the deposited data

Results flagged for a closer look

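Among 36 groups of 4 libraries (the members, their receptors and *Cd1d1* in each genotype), 2 held a library whose distance from the others passed Dixon's 95% critical value, and chance alone gives about 1 in 20 groups. *Cd1d1* had 60.7 normalized counts in the library labelled CD1d-KO replicate 1 and between 0 and 1.14 in the other CD1d-KO libraries. *Ccr3*, the receptor gene of *Ccl24*, had 39.6 normalized counts in CD1d-KO replicate 5 and between 15.3 and 19.0 in the other CD1d-KO libraries. None of the 20 groups of the 10 members held such a library.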

How the results depend on the processing

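The number of genes called (5 of 13040) became 105 of 10617 with DESeq2 and 236 of 25377 with no filter on counts. It became 3 with limma-trend on log2(TPM + 1), and between 3 and 22 (without replicate 2) when a replicate number was left out. Of the 9 members other than *Cxcl1*, which was picked on this contrast, calls (0) became 1 with DESeq2 (*Ccl24*) and 3 with no filter (*Cxcl10*, *Cxcl13* and *Ccl24*), and stayed at 0 with a number left out. Without the replicate block 3 genes and 0 of these members were called, and the estimate of *Ccl3* turned to 0.0011. Genes that differed between replicate numbers (513) became 1721 with DESeq2, 2250 with no filter, 0 with limma-trend and 0 (without replicate 3) to 734 (without replicate 2) with a number left out, with 47 without replicate 1. The members among them (5, *Cxcl1* included) became 7, 9, 0 and 0 to 6. Of the 9 pairs of neighbouring levels, 0 passed with a number left out, where the 6 libraries left allow a pass only if at least 6 pairs reach the smallest p, and 0 passed with signs flipped by replicate pair, where no p can fall below 0.125. For the members, 110 fold changes under the alternatives were compared with the main ones, those of *Cxcl1* by direction only. Of these, 97 kept their direction and side of the threshold, 4 newly passed it and 9 turned sign. The latter belonged to genes near 0. *Ccl4* turned to -0.0047 with upper quartile factors and -0.0004 with no filter and ran from -0.0523 to 0.128 with a number left out, *Ccl3* from -0.088 to 0.140, *Ccl2* from -0.477 to 0.0191 and *Ccl6* from -0.238 to 0.0511. The cause of these changes was not tested.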
